A study of Arabidopsis thaliana with 36 samples.

Results

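The genes described here encode proteins of the cytosolic ribosome of Arabidopsis thaliana. They are 49 of the 16283 genes in the deposited table, chosen by a list of gene identifiers, and all 49 were found there. The RefSeq annotation (TAIR10.1) calls all 49 structural constituents of the ribosome, and its notes on 37 of them carry the word cytosolic. Of these, 21 belong to the small (40S) subunit and 28 to the large (60S) subunit, 1 of them the acidic stalk protein P1. They fall into 31 protein families, and 17 families are present with 2 or more gene copies, which together hold 35 of the members. Another 155 cytosolic ribosomal protein genes of the table are not members.

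The libraries were made from wild-type Columbia-0 seedlings aged 7 d, grown at 21°C, with 30 to 50 seedlings pooled per replicate and roots and shoots extracted apart. Treated seedlings were kept in an aqueous solution of 30% PEG, an osmotic stress measured at -2.0 MPa, together with SHAM (salicylhydroxamic acid, an inhibitor of the plant alternative oxidase). The sample labels give SHAM as 1 mM, while one passage of the treatment protocol gives 0.1 mM. The treated groups are PEG+SHAM for 1 h, 2 h and 3 h, in roots and in shoots. The references are 3 sets of seedlings in water whose titles begin PS0, S0 and PH0. All 3 sets carry the same label, water for 1 h, and what the prefixes stand for is not stated, so each set is compared on its own. Each of the 12 groups has 3 libraries, 36 in all. None of them had PEG or SHAM by itself, and water was sampled at 1 h alone. Effects of PEG, of SHAM and, at 2 h and 3 h, of time in solution therefore cannot be told apart. The comparisons with 1 water set share its 3 libraries, and the comparisons of 1 treated group share that group's libraries.

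Ribosomal proteins bind ribosomal RNA in the nucleolus and cytoplasm to build the small subunit, which decodes messenger RNA, and the large subunit, which forms peptide bonds. In plants each protein is usually encoded by several near-identical gene copies, and mutants of single copies often show pointed leaves or embryo arrest. Transcripts of these genes are typically abundant in dividing tissue, and ribosome production is controlled by TOR kinase, one of whose targets is the S6 kinase that phosphorylates ribosomal protein S6.

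Libraries were made by MARS-seq, which reads the 3′ end of transcripts, so levels are not compared between genes. Recovered reads per library ran from 161684 to 7181461 with a median of 1668297.5, and 5 libraries held fewer than 600000. Of these shallow libraries, roots held replicate 2 of the 1 h group and replicate 3 of PS0, and shoots held replicate 2 of the 2 h group and replicate 1 of both PS0 and PH0. A list of 12 shoot markers took 5.79 to 8.91% of reads in shoot libraries, against 0.0258 to 0.151% in root libraries, the highest of which was root 1 h replicate 2. A list of 11 root markers took 0.0626 to 0.249% in root libraries, against 0.000905 to 0.00346% in shoot libraries. The sources used here do not say how reads of near-identical gene copies were assigned, which makes a difference between copies of 1 family uncertain. In these bulk samples fewer cells of a type and less RNA per cell cannot be told apart.

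Together the 49 genes took a larger share of reads in roots than in shoots, and in both tissues the share in treated libraries lay closest to that of the PS0 water set. In roots it averaged 6.11% ± 1.04 at 1 h, 5.49% ± 0.36 at 2 h and 6.04% ± 0.73 at 3 h of PEG+SHAM (SD, n = 3 each). The root water sets averaged 5.76% ± 0.42 in PS0, 4.52% ± 0.28 in S0 and 4.68% ± 0.21 in PH0. In shoots the share was 2.38% ± 0.16, 2.17% ± 0.10 and 2.18% ± 0.10 at 1 h, 2 h and 3 h, against 2.35% ± 0.33 in PS0, 1.505% ± 0.28 in S0 and 0.891% ± 0.21 in PH0. The treated shoot libraries, between 2.06 and 2.55%, all lay above those of S0, between 1.19 and 1.73%, and of PH0, between 0.682 and 1.09%, and overlapped those of PS0, between 2.00 and 2.64%.

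**Figure D1:**
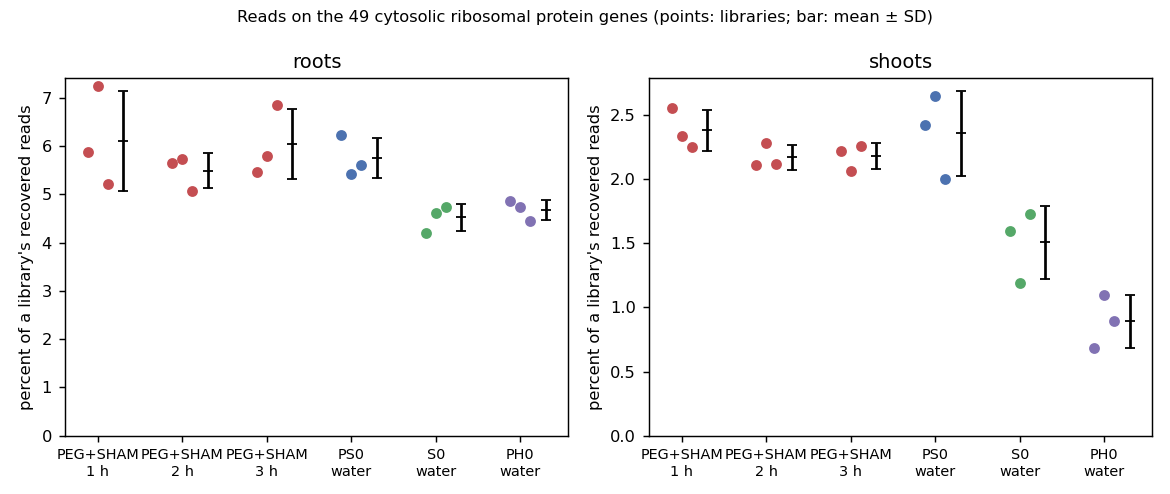
Share of each library's recovered reads (percent, vertical axis) that fell on the 49 cytosolic ribosomal protein genes, by group, in roots and shoots. Points are libraries and bars give the mean ± SD of 3; in shoots the treated libraries and PS0 lie above S0, and PH0, with a mean of 0.891%, is lowest.

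In water, transcripts of the cytosolic ribosome were higher in roots than in shoots for 48 of 49 members, over 9 root and 9 shoot libraries (limma-trend on log2 of normalized signal plus 1, Benjamini-Hochberg adjusted p under 0.05, the rule for every call here; log2 differences of low genes are understated by the added 1). Of all genes tested in this comparison 69.3% were called, 46.6% as higher in roots and 22.8% as lower there. The roots minus shoots median on the log2 scale was 1.49 over the members and 0.58 over all genes tested. EMB2296 (AT2G18020), a large-subunit protein of the L8 family, the bacterial L2, named for the embryo arrest of its mutants, averaged 2916 ± 352 in root water and 1359 ± 716 in shoot water (SD over 9 libraries each). Its log2 difference was 1.27 ± 0.11 (SE; limma adjusted p = 1.36e-11), although its highest shoot libraries reached the root range. The fit used all 36 libraries and held a separate mean for each of the 12 groups. The standard errors and p-values of this comparison therefore measure the spread of libraries within groups, the treated groups included. They do not cover the differences between water sets, which are described below. The L4 genes AT3G09630 and AT5G02870, whose protein lines the exit tunnel, differed by 1.60 ± 0.15 and 1.29 ± 0.13. AT1G74050, an L6 family gene, was the exception: it averaged 389 ± 80.6 in roots and 396 ± 74.1 in shoots, a log2 difference of -0.03 ± 0.13 (adjusted p = 0.838), while its sister copy AT1G18540 was higher in roots by 0.86 ± 0.13. The largest log2 differences of the members belonged to genes listed at 0 in some shoot libraries, namely AT5G58420 (S4 family) with 3.69 ± 0.50 and RPL23AB (AT3G55280) with 3.50 ± 0.40.

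**Figure D2:**
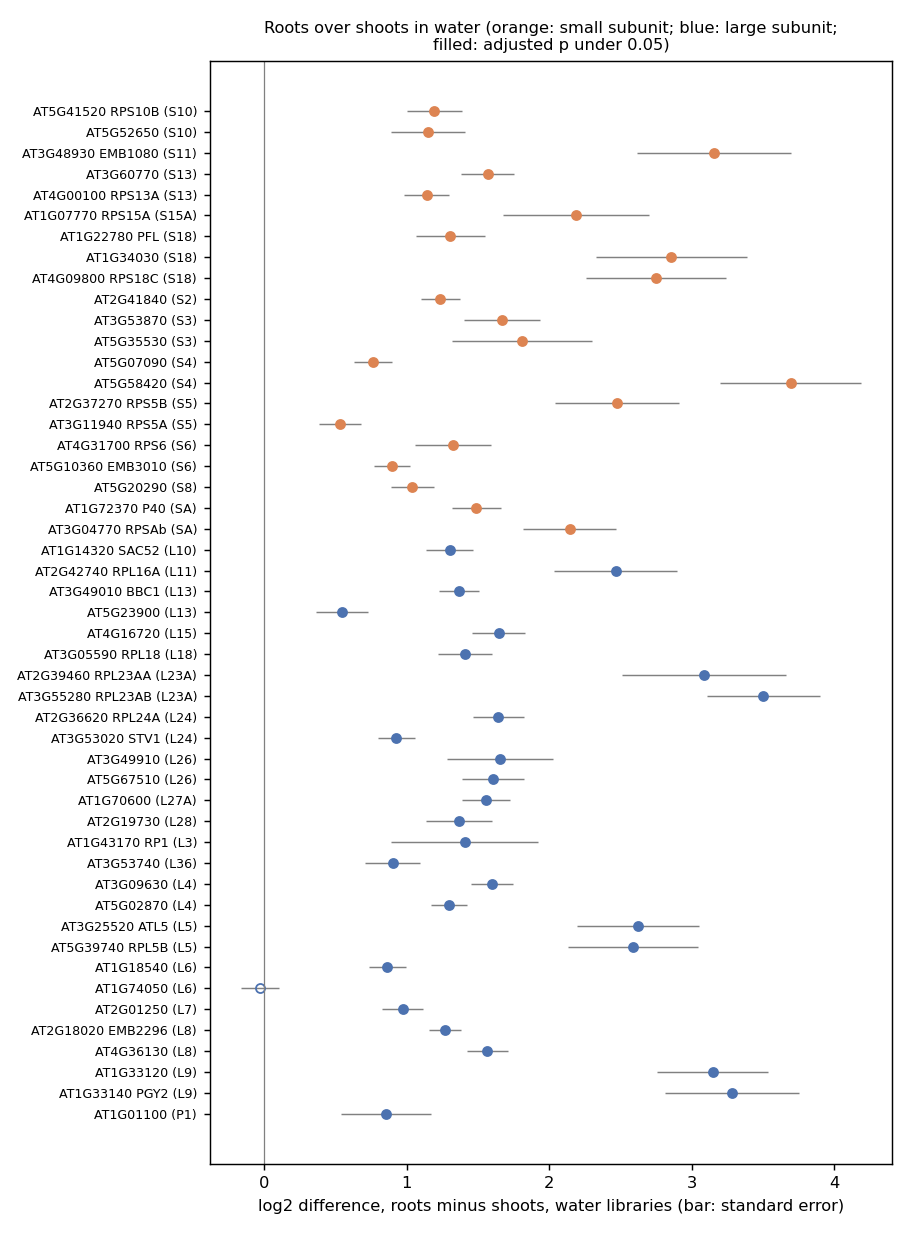
Log2 difference of each member between root and shoot water libraries (horizontal axis, log2 normalized signal plus 1, roots minus shoots). Bars are standard errors, from the spread of libraries within all 12 groups, the treated ones included. Filled points passed an adjusted p of 0.05: 48 of 49 did, all above 0, and AT1G74050 lies at -0.03.

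In shoots, between 24 and 29 of 48 members were higher in PEG+SHAM than in PH0 water, depending on the time. At 1 h 29 of 48 members were higher and 0 lower, where 9.56% of all genes tested were called higher, 8.11% lower and 17.7% in either direction. At 2 h it was 24 higher and 1 lower (12.7% of all genes higher, 12.9% lower, 25.7% either), and at 3 h 27 higher and 0 lower (13.9% higher, 13.1% lower, 27% either). The median log2 difference of the members was 1.04, 0.89 and 0.95, against 0.08, 0.03 and 0.07 over all genes tested. Of the 48, 21 belong to the small subunit, 12, 9 and 11 of which were called higher, and 27 to the large subunit, 17, 15 and 16 of which were called higher. RPL16A (AT2G42740) was listed at no more than 5.4 in any shoot library and did not pass the filter.

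EMB2296 had 1996, 1904 and 2155 normalized signal at 1 h, and 1717, 1442 and 1495 at 3 h, against 566, 789 and 702 in PH0 shoots. No treated library came near a PH0 one. Its log2 difference was 1.57 ± 0.17 at 1 h (limma adjusted p = 3.88e-06), 1.09 ± 0.17 at 2 h and 1.19 ± 0.17 at 3 h. SAC52 (AT1G14320), an L10 protein first found as a suppressor of the dwarf acaulis mutant, had 573, 523 and 439 at 1 h and 403, 496 and 518 at 3 h, against 77.7, 198 and 156 in PH0. The groups do not overlap, the ratio of means was 3.56 at 1 h, and the log2 differences were 1.92 ± 0.26, 1.84 ± 0.26 and 1.80 ± 0.26 at the 3 times. AT1G18540 (L6 family) had 910, 779 and 820 at 1 h and 630, 536 and 565 at 3 h, against 278, 316 and 264 in PH0. Its log2 difference was 1.55 ± 0.19 at 1 h, 1.19 ± 0.19 at 2 h and 1.01 ± 0.19 at 3 h.

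RPS6 (AT4G31700), the substrate of S6 kinase, had 602, 404 and 578 at 3 h, against 55.5, 73.9 and 119 in PH0 shoots, a log2 difference of 2.71 ± 0.50 (adjusted p = 0.000408). Its copy EMB3010 (AT5G10360) differed less, with 995, 874 and 1038 at 3 h, against 500, 584 and 507 in PH0 (0.87 ± 0.20, adjusted p = 0.00271). At 1 h RPS6 had 524, 374 and 72, so 1 of its 3 libraries fell inside the PH0 range. STV1 (AT3G53020), the L24 copy that plants need to translate auxin response factors behind upstream reading frames, was higher by 1.15 ± 0.17 at 1 h. P40 (AT1G72370), a small-subunit SA protein, had 1640, 1334 and 1419 at 3 h, against 289, 715 and 656 in PH0 (log2 difference 1.504 ± 0.26). AT2G01250 (L7) and AT5G07090 (S4) were higher by 1.43 ± 0.22 and 1.34 ± 0.21 at 3 h. The stalk gene AT1G01100, whose P1 protein contacts elongation factors, was higher by 1.17 ± 0.33 at 3 h (adjusted p = 0.0132), with 3792, 2411 and 3245, against 1055, 1710 and 1447. RPS5B (AT2G37270) was the 1 member called lower, at 2 h, with 1.2, 0 and 0, against 11.1, 2.5 and 3.5 (-2.15 ± 0.74, adjusted p = 0.0389). That call was lost without shoot PH0 replicate 1 and without shoot 2 h replicate 2 or 3. The RPS5B values lie near the floor, as 1 read counted as 11.1 in shoot PH0 replicate 1.

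Leaving out each replicate in turn gave 21 to 30 calls at 1 h, 20 to 27 at 2 h and 23 to 28 at 3 h. Without the shallow libraries the 2 h count was 16. Of 26 calls of named members against PH0 in shoots, those of the other water sets included, 25 passed in every fit without 1 library. They were picked for the largest moderated t, which favors their passing, so this does not speak for the other calls. The shoot marker list moved as well, at 7.61, 6.56 and 6.12% of reads at 1 h, 2 h and 3 h, against 8.53% in PH0. Of its 12 genes 5, 6 and 6 were called lower and 2 higher at each time, and its part in the result was not tested.

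**Figure D3:**
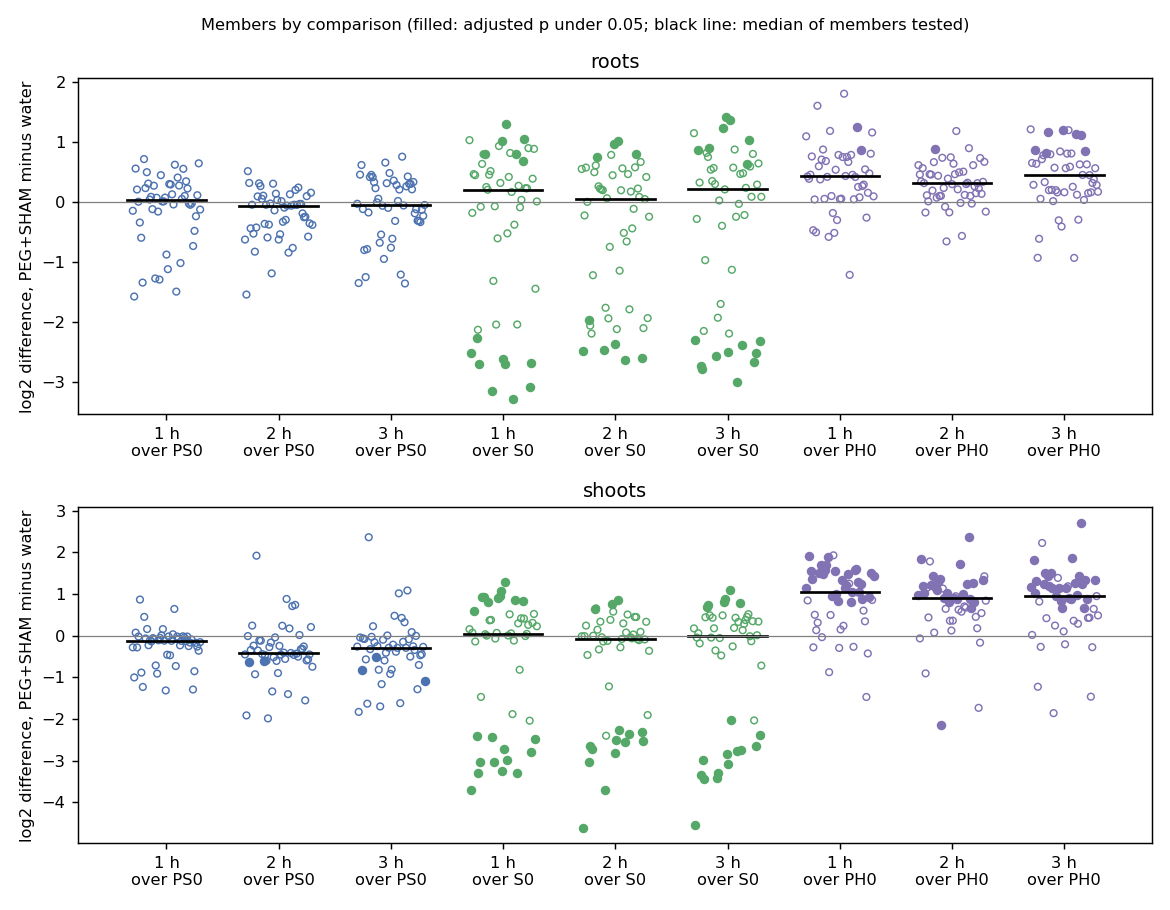
Log2 difference of every tested member between PEG+SHAM and each water set (vertical axis, PEG+SHAM minus water), by time, in roots (49 members) and shoots (48 members). Filled points passed an adjusted p of 0.05 and the black line is the median. In shoots the points over PH0 center near 1 and those over PS0 just below 0. Over S0 the filled points are mildly positive or strongly negative in both tissues.

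Against PS0 water, the set whose prefix the treated titles share, few shoot members were called. At 1 h there were 0 calls among 48 members (0.87% of all genes were called), and 0 members reached an unadjusted p under 0.05; edgeR and DESeq2 on recovered reads called 0 as well. At 2 h 2 members were lower and 0 higher (9.42% of all genes called; 4.36% higher and 5.06% lower), and at 3 h 3 were lower and 0 higher (14%; 6.66% higher and 7.37% lower). AT1G18540 had 630, 536 and 565 at 3 h, against 1125, 1243 and 748 in PS0 shoots, a log2 difference of -0.82 ± 0.19 (limma adjusted p = 0.00619) that passed without any 1 library. AT5G67510, an L26 gene, had 205, 135 and 238, against 504, 514 and 252, a difference of -1.10 ± 0.31 (adjusted p = 0.0221). EMB2296 had 1717, 1442 and 1495, against 2243, 2578 and 1886, or -0.52 ± 0.17 (adjusted p = 0.0493). The groups do not overlap for any of these 3 genes, which were picked as the called ones. The lower calls at 2 h and 3 h are smaller shares of the 48 members than the shares of all genes called lower. The calls of AT5G67510 were lost without shoot PS0 replicate 1 or 2 or without 3 h replicate 2, and those of EMB2296 without PS0 replicate 1 or 2 or any 3 h replicate.

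The counts against PS0 moved with 1 library. Without shoot PS0 replicate 3 they were 11 at 2 h and 9 at 3 h. The 2 h count was 0 when replicate 1 or 2 of PS0 or of the 2 h group was left out, and 1 without 2 h replicate 3. The 3 h count was 1 when replicate 1 or 2 of PS0, or 3 h replicate 2, was left out. The members' median log2 difference against PS0 was -0.13 at 1 h, -0.42 at 2 h and -0.29 at 3 h, against -0.02, -0.09 and -0.08 over all genes tested. The standard errors of the members against PS0 had a median of 0.27 and ran from 0.17 to 0.99 on the log2 scale, so a missing call does not show equal levels. Of the 12 shoot markers 0, 6 and 8 were lower than in PS0, where they took 7.93% of reads, and 0 were higher, and their part in the result was not tested.

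Against S0 water, the shoot members that were called were mildly higher or strongly lower, while most members were not called at each time. At 1 h 10 were higher and 12 lower (20.5% of all genes called; 6.49% higher and 14% lower), at 2 h 3 higher and 12 lower (27%; 8.24% higher and 18.7% lower), and at 3 h 6 higher and 13 lower (28.4%; 9.11% higher and 19.3% lower). The median over the members was 0.05, -0.08 and -0.0025, against -0.13, -0.20 and -0.20 over all genes. The shoot markers took 8.01% of reads in S0, more than in the treated shoots given above; 2, 8 and 8 of the 12 were called lower at the 3 times and 2, 1 and 1 higher, the 1 at 3 h being CAB2 (AT1G29920), and their part in the result was not tested. BBC1 (AT3G49010), an L13 protein, had 1078, 954 and 917 at 1 h and 940, 757 and 878 at 3 h, against 428, 293 and 516 in S0. Its log2 difference was 1.29 ± 0.20 at 1 h (limma adjusted p = 0.00024), 0.85 ± 0.20 at 2 h and 1.09 ± 0.20 at 3 h. RPS5A (AT3G11940), the S5 copy known for its strong promoter in dividing cells, had 1451, 1347 and 1011 at 1 h, against 529, 560 and 735 in S0, or 1.06 ± 0.23 (adjusted p = 0.00322), and was higher by 0.89 ± 0.23 at 3 h. For both genes every treated library of those times lay above every S0 library.

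RPS15A (AT1G07770), a small-subunit protein, had 12.4, 11.7 and 13.4 normalized signal at 1 h and 5.9, 3.9 and 12 at 3 h, against 405, 196 and 67.2 in S0. The groups are far apart, and the 3 S0 libraries themselves span a wide range. The log2 difference was -3.71 ± 0.93 at 1 h (adjusted p = 0.0089), -4.62 ± 0.93 at 2 h and -4.53 ± 0.93 at 3 h (adjusted p = 0.00125). RPS5B had 1.5, 0.6 and 0 at 3 h, against 32.5, 12.2 and 9.9 in S0 (-3.41 ± 0.74). ATL5 (AT3G25520), an L5 protein that carries a small ribosomal RNA into the large subunit, had 8.9, 2.6 and 10.9 at 3 h, against 108, 43.5 and 31 (-2.84 ± 0.68). AT1G33120, one of 2 L9 copies, and AT1G34030, an S18 copy, gave -3.35 ± 0.79 and -3.43 ± 0.84, and both are listed at 0 in some 3 h libraries.

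AT3G49910 (L26) had 95, 66.7 and 65.9 at 1 h in shoots, against 666, 527 and 603 in S0 (-2.98 ± 0.59, adjusted p = 0.00187). Its 3 h libraries had 166, 95 and 193, and in the 2 h group replicate 2, a shallow library, had 449 beside 54.2 and 75.4. The counts against S0 fell when an S0 library was left out. Without shoot S0 replicate 1 they were 9, 6 and 8 at the 3 times, and without S0 replicate 2 they were 8, 8 and 12. They were 14 at 1 h without 1 h replicate 3, 6 and 8 at 2 h without 2 h replicate 1 and replicate 3, and 12 at 3 h without 3 h replicate 2. With TMM scaling the split was 6 higher and 11 lower at 2 h, and 10 higher and 13 lower at 3 h.

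In roots, 0 of 49 members were called against PS0 water at 1 h (1.67% of all genes called), 2 h (3.04%) or 3 h (6.56%). At an unadjusted p under 0.05 there were 2, 0 and 2 members, and edgeR called 0, 0 and 1 and DESeq2 0, 0 and 1. The 3 members with the largest statistics at 3 h were AT1G18540 with 0.62 ± 0.25, and then AT3G60770 and RPL23AB with 0.76 ± 0.36 and -1.21 ± 0.61, the smallest adjusted p of all members being 0.169. The median over the members was 0.04, -0.06 and -0.05, against -0.12, -0.10 and -0.16 over all genes. The members' standard errors there had a median of 0.39 and ran from 0.23 to 0.97, so the lack of calls does not show equal levels. Of the 11 root markers 3, 5 and 8 were lower than in PS0 and 0 higher, and their part in the result was not tested.

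Against PH0 water, root members were called higher or not at all. There were 2 higher at 1 h (8.13% of all genes called; 3.8% higher and 4.33% lower), 1 at 2 h (8.91%; 4.25% higher and 4.66% lower) and 7 at 3 h (14.2%; 6.28% higher and 7.91% lower), with 0 lower at each time. As a share of the members tested, these calls are near the share of all genes called higher at 1 h. They are below it at 2 h and above it at 3 h. At an unadjusted p under 0.05 there were 8, 6 and 11 members, all higher. RPS5A had 1927, 2402 and 3238 at 3 h, against 1113, 1130 and 985 in PH0 roots, with every 3 h library above every PH0 one, and differed by 1.198 ± 0.28 (limma adjusted p = 0.00629). AT2G01250, an L7 gene, had 1280, 1569 and 2233, against 778, 753 and 674, or 1.17 ± 0.27 (adjusted p = 0.00701), and lost the call without 3 h replicate 3. RPS6 was higher by 1.25 ± 0.36 at 1 h and by 1.12 ± 0.36 at 3 h. The median over the members was 0.43, 0.32 and 0.45, against -0.15, -0.06 and -0.13 over all genes. The 11 root markers took 0.122, 0.0988 and 0.0729% of reads at the 3 times, against 0.200% in PH0, with 8, 9 and 9 called lower and 0 higher. At 1 h 4 of the 12 shoot markers were called higher in roots and 0 lower, and the part of either list in the result was not tested.

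These root counts depended on single libraries. Without any 1 of the 3 PH0 libraries the 3 h count was 2, and without 3 h replicate 3 it was 1. At 1 h it was 0 without any 1 PH0 library or 1 h replicate 2. At 2 h it was 0 without any 1 PH0 library or 2 h replicate 1 or 2, and 2 without 2 h replicate 3. Root 1 h replicate 2 is the shallow library with the highest shoot marker share, and it also held 27306 of P1 gene AT1G01100, against 5660 and 2119 in the other 1 h root libraries.

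Against S0 water, root members were called in both directions. At 1 h 6 members were higher and 9 lower (27.7% of all genes called; 5.61% higher and 22.1% lower), at 2 h 4 and 6 (24%; 5.62% higher and 18.4% lower), and at 3 h 7 and 10 (32.1%; 7.68% higher and 24.4% lower). The median over the members was 0.21, 0.05 and 0.21, against -0.44, -0.38 and -0.47 over all genes tested. With TMM scaling, which raised the all-gene medians to -0.14, -0.04 and -0.08, the split became 15 higher and 9 lower, 11 and 6, and 21 and 9. The 11 root markers moved too, with 9 of 11 lower at each time, 1 higher at 1 h, and 0.212% of reads in S0, more than in the treated roots, and their part in the result was not tested.

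RPS5A had 1927, 2402 and 3238 normalized signal at 3 h, against 782, 1091 and 903 in S0 roots, with no overlap, and differed by 1.43 ± 0.28 (limma adjusted p = 0.00122). BBC1 had 1920, 2931 and 2727, against 784, 1130 and 1007 (1.37 ± 0.29, adjusted p = 0.00218), and AT5G07090 (S4) had 968, 1006 and 1721, against 500, 673 and 570 (1.04 ± 0.26). All 3 passed in every fit without 1 library at 3 h. AT1G33120 (L9) had 9.3, 13 and 32.6, against 89.2, 184 and 84 (-2.73 ± 0.54, adjusted p = 0.00137). RPL23AB, a protein at the exit of the peptide tunnel, had 6.5, 20.7 and 7.7, against 71.2, 130 and 76.4 (-3.004 ± 0.61, adjusted p = 0.00162). Both lower genes were below every S0 library and also passed without any 1 library. PGY2 (AT1G33140), the second L9 copy, known from its effect on leaf polarity, gave -2.79 ± 0.79 but lost the call without S0 replicate 2 or without 3 h replicate 1 or 2.

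The total of calls in roots against S0 leaned on S0 replicate 2, the S0 root library with the fewest reads. Without it the counts were 7, 4 and 7 at 1 h, 2 h and 3 h. At 2 h the count was 4 without S0 replicate 1, 2 without 2 h replicate 1 and 5 without 2 h replicate 2. At 3 h it was 8 without 3 h replicate 1 and 7 without 3 h replicate 2. Of the members lower against S0, roots and shoots held 9 in common at 3 h, which is 90% of the 10 root members and 69.2% of the 13 shoot members. Over all 9191 genes tested in both tissues 615 were lower in both, or 41.8% of the 1471 in roots and 38.4% of the 1603 in shoots, and no test of this difference was made. In both tissues these were RPS15A, RPS5B, RPS18C (AT4G09800), ATL5, RPL5B (AT5G39740), RPL23AB, AT1G33120, PGY2 and AT5G58420. Of the members higher against S0 at 3 h, RPS5A and BBC1 were called in both tissues, which is 28.6% of the 7 in roots and 33.3% of the 6 in shoots, beside 41.6% and 41.2% over all genes.

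Across both tissues and all times 14 members were called lower against S0 at least once and 12 higher, and 0 were called in both directions. Of all genes tested 40.4% were called lower at least once, 14.3% higher and 1.58% in both directions. The members' share called lower is thus below that of all genes and their share called higher is above it. Neither difference was tested. As the 14 were picked by that contrast, their sums are given as a description. In roots they summed to 1645 ± 901, 1241 ± 616 and 1346 ± 1308 normalized signal at 1 h, 2 h and 3 h, against 1757 ± 1303 in PS0, 3954 ± 1996 in S0 and 654.8 ± 53.2 in PH0 (SD, n = 3 each). In shoots they summed to 129 ± 19.3, 264 ± 262 and 201 ± 68.6, against 257 ± 186 in PS0, 1243 ± 511 in S0 and 153 ± 59.9 in PH0. The S0 set was the highest of the 6 groups in each tissue. In 10 of the 12 groups the highest of the 3 sums belonged to the library with the fewest reads, root 2 h and shoot 3 h being the exceptions. For example the shoot S0 libraries had sums of 1822, 1051 and 855 with the fewest reads in replicate 1 and the most in replicate 3. The other 35 members showed this order in 9 of 12 groups, with a smaller spread. In root S0 the median ratio of the highest to the lowest replicate was 1.36 for the 35 and 2.66 for the 14. In shoot S0 it was 1.43 and 3.91. The 35 also had far more signal there, summing to 52435 in root S0 and 28000 in shoot S0. The spreads are therefore not compared at equal levels. The order is not particular to the members, as the summed signal of all genes showed it in every group but shoot S0 and shoot PH0. In root 1 h that sum was 1.83e+06 in replicate 2, the library with the fewest reads, against 1.19e+06 and 1.05e+06.

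**Figure D4:**
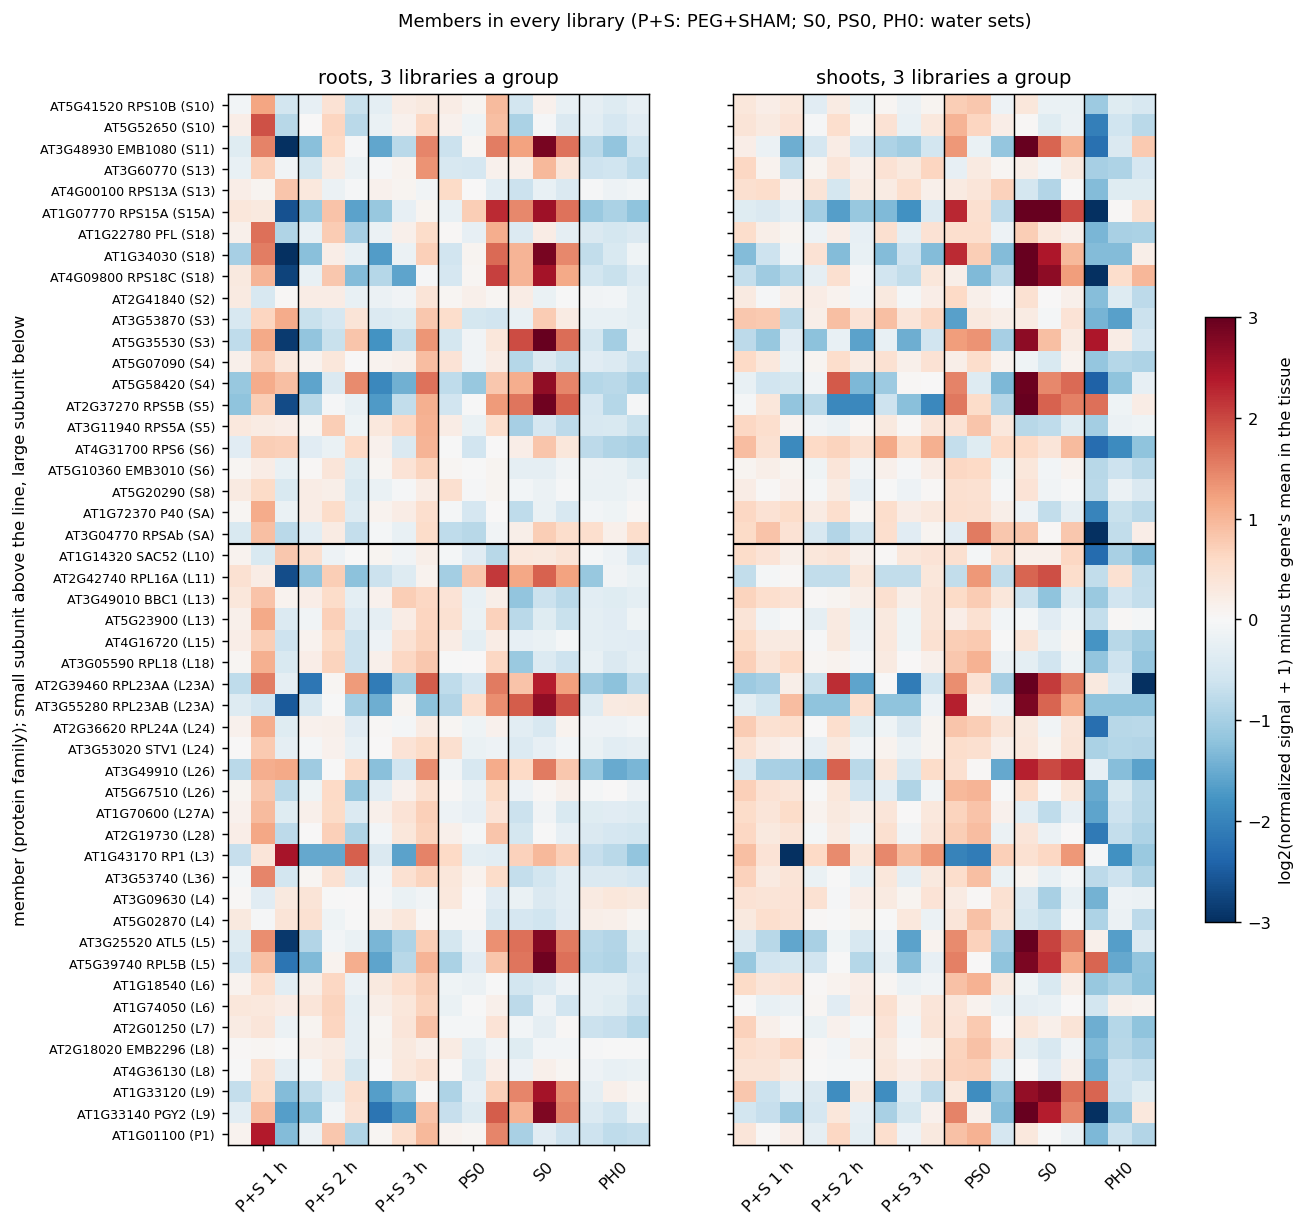
Every member (rows, with protein family) in every library (columns, 3 per group), as log2 of normalized signal plus 1 minus the gene's mean within the tissue. Most of the 14 members lower against S0 are red (high) in the S0 columns of both tissues and vary between replicates elsewhere, and most shoot rows are blue (low) in PH0, where EMB2296 averaged 686.

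Copies of 1 protein were called in opposite directions against S0 in few of the 17 families with 2 or more copies. This held for 1, 1 and 2 families in roots and 1, 0 and 1 in shoots at 1 h, 2 h and 3 h. In 1, 0 and 2 families in roots and 3, 3 and 4 in shoots, 2 or more copies were lower. No test between copies was made, and how reads of near-identical copies were assigned is not known. RPS5A and RPS5B were called in opposite directions against S0 at 1 h, 2 h and 3 h in roots and at 1 h and 3 h in shoots. RPS5A is described above; RPS5B had 7.9, 16.2 and 59.4 at 3 h in roots, against 86.7, 217 and 98.7 in S0, or -2.56 ± 0.74 (limma adjusted p = 0.0154), a call lost without S0 replicate 2 or 3 h replicate 1 or 2. In the S4 pair at 3 h in roots AT5G07090 was higher by 1.04 ± 0.26 and AT5G58420 gave -2.32 ± 0.86, with 17.7, 25.3 and 221, against 152, 450 and 197, so that 1 library fell in the S0 range. Both L5 copies, ATL5 and RPL5B, were lower in roots at 3 h, at -2.51 ± 0.78 and -2.52 ± 0.75, as were both L9 copies. Both L6 copies, AT1G18540 and AT1G74050, were higher there, at 0.88 ± 0.25 and 0.90 ± 0.25. Of the 3 S18 copies, RPS18C was lower in roots at -2.38 ± 0.81 and AT1G34030 had -2.15 ± 0.92 without a call, while PFL (AT1G22780), whose mutant has pointed first leaves, had 0.33 ± 0.52. Of the S13 copies, RPS13A (AT4G00100) had 0.47 ± 0.26 and AT3G60770 -0.03 ± 0.36. RP1 (AT1G43170), an L3 protein next to the peptidyl transferase center, was called against no water set and varied widely between replicates, with 238, 104 and 904 in roots at 3 h, against 516, 630 and 523 in S0.

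**Figure D5:**
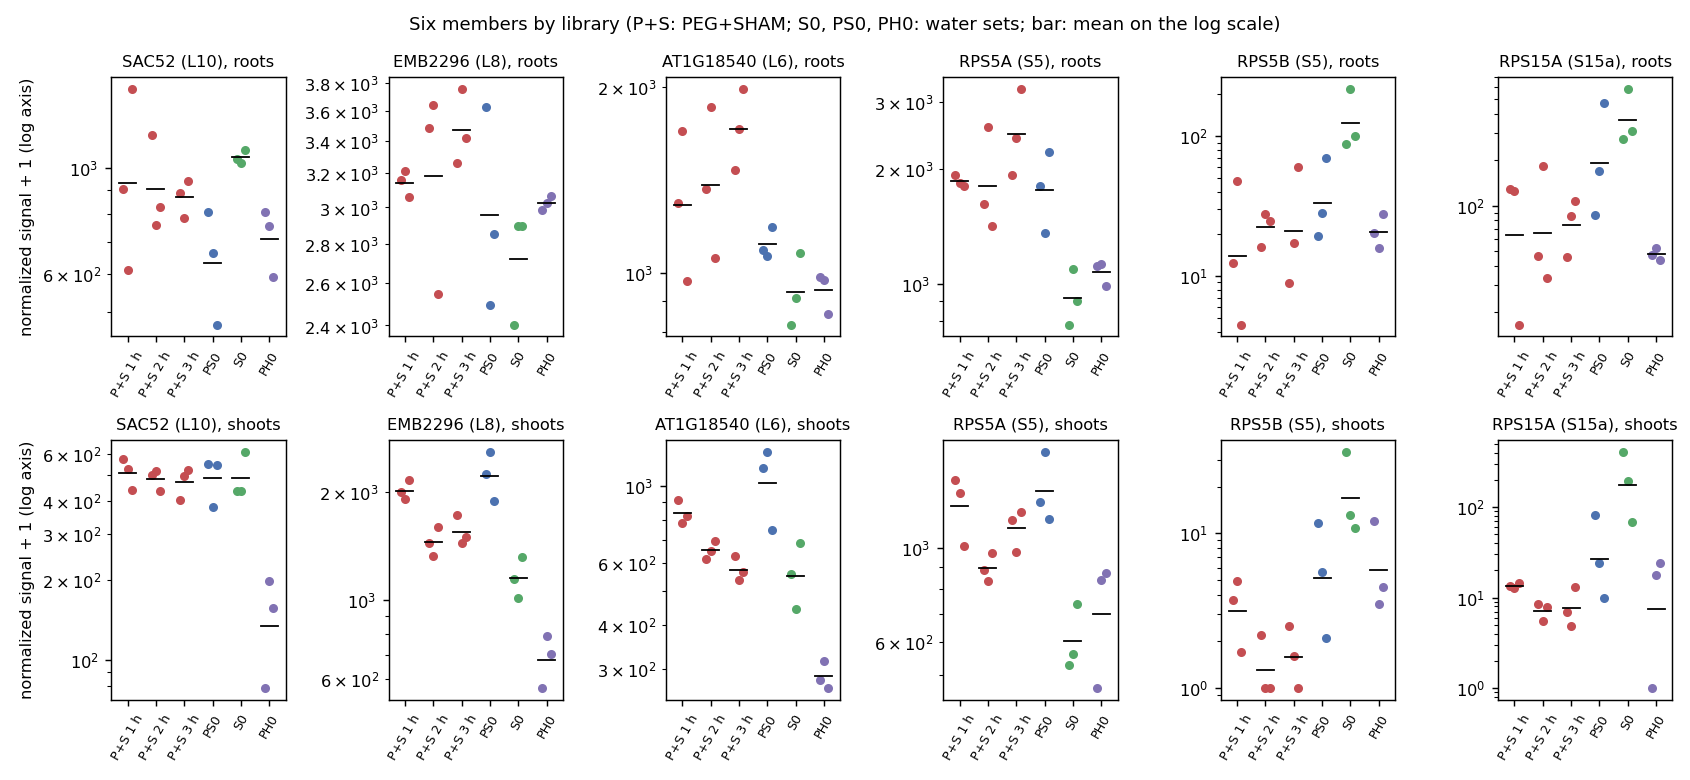
Normalized signal plus 1 (log axis) of SAC52, EMB2296, AT1G18540, RPS5A, RPS5B and RPS15A in every library, roots above and shoots below, with a bar at the mean on the log scale. SAC52 in shoots is low in PH0 alone (77.7, 198 and 156), RPS5A has its lowest means in S0 and PH0, and RPS5B and RPS15A their highest in S0, in both tissues.

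The water sets differed among themselves, most of all in shoots. PS0 shoots were higher than PH0 shoots in 29 of 48 members and lower in 0 (14.6% of all genes called; 8.27% higher and 6.31% lower), and S0 shoots were higher than PH0 shoots in 32 and lower in 0 (16.5%; 11.3% higher and 5.15% lower). The medians were 1.27 and 1.18, against 0.07 and 0.31 over all genes. SAC52 had 550, 378 and 545 in PS0 and 434, 432 and 607 in S0, against 77.7, 198 and 156 in PH0, a log2 difference of 1.85 ± 0.26 for each (adjusted p = 0.000112 and 0.000997). Without S0 replicate 1 the S0 count was 13. PS0 shoots were higher than S0 shoots in 8 members and lower in 3 (10.8%; 3.37% higher and 7.39% lower). BBC1 led the higher ones with 1008, 1144 and 852, against 428, 293 and 516, or 1.31 ± 0.20, and AT3G49910 the lower ones with 183, 136 and 44.8, against 666, 527 and 603, or -2.51 ± 0.59. That count was 6 without S0 replicate 1, 4 without S0 replicate 2 and 5 without PS0 replicate 2.

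In root water sets fewer members were called. PS0 roots were lower than S0 roots in 1 member, AT1G33120 (4.45% of all genes called; 1.22% higher and 3.23% lower), at -1.93 ± 0.54, and higher in 0; the count was 0 without any single library of the comparison other than PS0 replicate 3, without which it was 2. Between PS0 and PH0 roots 0 members were called (2.21%), with 6 at an unadjusted p under 0.05, 0 by edgeR and 2 by DESeq2. S0 roots were higher than PH0 roots in 4 members and lower in 0 (3.87%; 3.41% higher and 0.46% lower), namely RPS15A, RPL5B, AT3G49910 and RPS6. RPS15A had 274, 586 and 309 in S0, against 46.1, 51.4 and 43 in PH0, or 2.95 ± 0.74 (adjusted p = 0.0434). The 4 calls were all lost, to a count of 0, when any single library of either group was left out.

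Between the times of treatment 0 members were called in either tissue. In roots 0.0502% of all genes were called for 2 h against 1 h, 0.00837% for 3 h against 2 h and 1.27% for 3 h against 1 h, and 0 members reached an unadjusted p under 0.05 in each. edgeR and DESeq2 also called 0 in these root comparisons. In shoots the shares were 2.27%, 0% and 6.24%, with 5, 0 and 7 members at an unadjusted p under 0.05, and edgeR and DESeq2 each called 1 member lower at 3 h against 1 h and 0 in the others. AT1G18540 in shoots had 910, 779 and 820 at 1 h. Its 2 h libraries had 618, 651 and 693 and its 3 h libraries 630, 536 and 565, so its 1 h libraries lay above the later ones.

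Whether treatment moved the members differently in the tissues was tested as the root response minus the shoot response, over the 48 members tested in both. Against PH0, where shoot members were higher, 8 members at 1 h (9.88% of all genes called; 4.82% higher and 5.06% lower), 2 at 2 h (10.7%; 5.74% and 4.96%) and 3 at 3 h (11.5%; 6.2% and 5.3%) had a smaller response in roots, and 0 a larger one. EMB2296 gave -1.51 ± 0.28 at 1 h (limma adjusted p = 0.000491), a call kept in every fit without 1 library. In roots it had 3158, 3216 and 3057 at 1 h, against 2983, 3027 and 3064 in PH0, beside the shoot values above. SAC52 gave -1.53 ± 0.40, -1.49 ± 0.40 and -1.51 ± 0.40 at the 3 times, and lost all 3 calls without shoot PH0 replicate 1, the library with the fewest reads of the series. Without that library the counts at 2 h and 3 h were 0, and at 1 h it was 2. The 1 h count was 3 without root PH0 replicate 1 or 2 or shoot 1 h replicate 1, 4 without root PH0 replicate 3, root 1 h replicate 1 or 3 or shoot 1 h replicate 3, 5 without shoot 1 h replicate 2, and 13 without root 1 h replicate 2. At 2 h the count was 6 without shoot PH0 replicate 2 and 5 without replicate 3, and at 3 h 5 without either. As given above, many members were also higher in PS0 and S0 shoots than in PH0 shoots, and the part of this was not tested.

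Against PS0 the difference between tissues was called for AT1G18540 at 3 h, and for 0 members at 1 h and 2 h (of all genes, 3.83% were called at 3 h, with 2.19% higher and 1.64% lower, while the 1 h and 2 h shares were 0.348% and 2.63%). AT1G18540 had 1467, 1710 and 1983 at 3 h in roots, against 1088, 1061 and 1186 in PS0 roots, while in shoots it was lower. Its difference was 1.44 ± 0.31 (adjusted p = 0.00477) and passed without any 1 library. Against S0, 0 members differed between the tissues at 1 h (5.42%), 2 h (7.15%) or 3 h (8.38%), with 3, 0 and 2 at an unadjusted p under 0.05, 0 by edgeR at each time, and 1, 0 and 2 by DESeq2. At 1 h and 2 h against PS0, 0 and 4 members reached an unadjusted p under 0.05, edgeR called 0 at both and DESeq2 0 and 2. A single call appeared against S0 at 1 h without root 1 h replicate 1, and against PS0 at 2 h without shoot PS0 replicate 3 or root 2 h replicate 3.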

How the data were processed

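MARS-seq libraries of roots and shoots were analysed from 1 table of normalized signal per gene that the authors deposited, whose values are counts divided by a size factor per library. Per the submitters' processing notes, bcl2fastq, cutadapt, STAR 2.4.2a, HTSeq and DESeq2 were used; the sources used here give neither their settings nor the genome build. Whole reads were recovered from the steps of the deposited signal (100% of values whole after allowing for rounding to 0.1) and used for depth, read shares and the edgeR and DESeq2 alternatives.

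Genes reaching 5 in at least 3 libraries of a tissue were tested with limma-trend 3.58.1 (R 4.3.3) on log2(signal + 1), with 18 libraries and 6 group means per tissue, or all 36 libraries and 12 groups across tissues. P-values were adjusted over all genes tested by Benjamini-Hochberg, with a threshold of 0.05. The procedure was tested on simulated data. Nothing says that replicates were separate cultures beyond the pooled seedlings, so p-values measure the spread between these samples.

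Members and gene lists were chosen with earlier results of these data known. Named members are mainly the called ones with the largest moderated t, up to 5 a direction, with their family copies, or the top 3 where none was called. Some were also named outside that rule, among them RP1, and RPS6 and AT1G01100 in shoots against PH0. For other lists, up to 3 called genes at 3 h are named. Alternatives were a pseudocount of 0.5, no filter, TMM, edgeR 4.0.16, DESeq2 1.42.0, a replicate block, a depth term, leaving out libraries under 600000 reads, and leaving out each replicate. Sequences were not used here.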

Additional observations from a re-analysis of the deposited data

Results flagged for a closer look

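For 8 members at 1 h, 2 at 2 h and 3 at 3 h the response to PEG+SHAM against PH0 water differed between roots and shoots in the test of the difference itself (root response minus shoot response, limma interaction over 36 libraries, adjusted over all genes tested). Over all genes the shares called were 9.88%, 10.7% and 11.5%, so the 2 and 3 members of 48 at 2 h and 3 h are smaller shares than those. At 1 h the differences were -1.51 ± 0.28 (SE) for EMB2296 (AT2G18020, L8; adjusted p = 0.000491), -1.53 ± 0.40 for SAC52 (AT1G14320, L10; 0.0127) and -1.29 ± 0.36 for AT3G09630 (L4; 0.0175). AT1G18540 (L6) gave -1.09 ± 0.31 (0.0227), RPL24A (AT2G36620) gave -1.45 ± 0.44 (0.0305) and AT5G02870 (L4) gave -0.96 ± 0.31 (0.0444). P40 (AT1G72370) and RPSAb (AT3G04770), both copies of the SA protein, gave -1.31 ± 0.43 (0.0496) and -2.44 ± 0.80 (0.04998). With 1 library left out the 1 h count ran from 2 to 13. SAC52 and AT3G09630 lost their 1 h calls without shoot PH0 replicate 1, AT1G18540 kept its call in 8 of 12 such fits and RPL24A in 4 of 12. In shoots the PS0 and S0 water sets were themselves higher than PH0 in 29 and 32 of 48 members, beside the all-gene shares given above. Against S0 water 0 members differed between the tissues at each time. The part of the PH0 set in these differences was not tested.

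At 2 h SAC52 gave -1.49 ± 0.40 (adjusted p = 0.0137) and EMB2296 -1.02 ± 0.28 (0.016). At 3 h SAC52 gave -1.51 ± 0.40 (0.0118), EMB2296 -0.99 ± 0.28 (0.0193) and AT3G09630 -1.25 ± 0.36 (0.0194). All 5 of these later calls were lost without shoot PH0 replicate 1, which held 161684 reads, while the 1 h call of EMB2296 was kept in all 12 fits without 1 library.

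Against PS0 water 1 member differed between the tissues, AT1G18540 at 3 h, by 1.44 ± 0.31 (adjusted p = 0.00477), kept in all 12 fits without 1 library.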

How the results depend on the processing

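Counts of called members within 1.5 times of those reported were kept in 24 of 40 comparisons with a depth term, 23 with DESeq2, 29 with edgeR, 35 without the filter, 37 with a pseudocount of 0.5, 38 with a replicate block, 28 with TMM and 28 without shallow libraries. No named member changed direction under these alternatives. The other counts follow. With a pseudocount of 0.5 the counts were 0 for root 2 h against PH0, 0 for root PS0 against S0 and 0 for root S0 against PH0. Without the filter on low values the counts were 1 for root 1 h against PH0, 0 for root 2 h against PH0, 2 for root PS0 against S0, 1 for shoot 2 h against PS0 and 5 for root minus shoot at 1 h against PH0. With TMM scaling the counts were 24 for root 1 h against S0, 17 for root 2 h against S0, 30 for root 3 h against S0, 2 for root 3 h against PS0, 11 for root 3 h against PH0, 6 for root PS0 against S0, 2 for root S0 against PH0, 0 for shoot 2 h against PS0, 1 for root minus shoot at 1 h against S0, 17 for root minus shoot at 1 h against PH0, 0 for root minus shoot at 2 h against PH0 and 3 for root minus shoot at 3 h against S0. With edgeR the counts were 4 for root 1 h against PH0, 16 for root 2 h against S0, 3 for root 2 h against PH0, 27 for root 3 h against S0, 1 for root 3 h against PS0, 11 for root 3 h against PH0, 4 for root PS0 against S0, 8 for root S0 against PH0, 1 for shoot 2 h against PS0, 21 for shoot PS0 against S0 and 1 for shoot 3 h against 1 h. With DESeq2 the counts were 23 for root 1 h against S0, 7 for root 1 h against PH0, 19 for root 2 h against S0, 3 for root 2 h against PH0, 1 for root 3 h against PS0, 11 for root 3 h against PH0, 7 for root PS0 against S0, 2 for root PS0 against PH0, 18 for root S0 against PH0, 5 for shoot 3 h against PS0, 18 for shoot PS0 against S0, 1 for shoot 3 h against 1 h, 1 for root minus shoot at 1 h against S0, 5 for root minus shoot at 1 h against PH0, 2 for root minus shoot at 2 h against PS0, 2 for root minus shoot at 3 h against S0 and 2 for root minus shoot at 3 h against PS0. With the replicate number as a block the counts were 0 for root 2 h against PH0 and 8 for root S0 against PH0. With a depth term the counts were 27 for root 1 h against S0, 2 for root 1 h against PS0, 5 for root 1 h against PH0, 25 for root 2 h against S0, 2 for root 2 h against PH0, 29 for root 3 h against S0, 7 for root 3 h against PS0, 13 for root 3 h against PH0, 16 for root PS0 against S0, 1 for root PS0 against PH0, 12 for root S0 against PH0, 18 for shoot PS0 against S0, 1 for root minus shoot at 1 h against S0, 1 for root minus shoot at 2 h against PS0, 4 for root minus shoot at 2 h against PH0 and 3 for root minus shoot at 3 h against S0. Without the libraries under 600000 reads the counts were 0 for root 1 h against PH0, 18 for root 2 h against S0, 11 for root 3 h against PH0, 9 for root PS0 against S0, 18 for root S0 against PH0, 1 for shoot 2 h against PS0, 16 for shoot 2 h against PH0, 22 for shoot PS0 against S0, 2 for shoot 3 h against 1 h, 1 for root minus shoot at 2 h against PS0, 1 for root minus shoot at 3 h against S0 and 2 for root minus shoot at 3 h against PS0. Leaving out each replicate in turn, counts ran from 7 to 19 for root 1 h against S0, 2 to 13 for root 2 h against S0, 7 to 17 for root 3 h against S0, 0 to 2 for root PS0 against S0, 0 to 0 for root S0 against PH0, 0 to 3 for root 1 h against PH0, 0 to 2 for root 2 h against PH0, 1 to 7 for root 3 h against PH0, 8 to 21 for shoot 1 h against S0, 6 to 17 for shoot 2 h against S0, 8 to 21 for shoot 3 h against S0, 4 to 16 for shoot PS0 against S0, 13 to 32 for shoot S0 against PH0, 0 to 11 for shoot 2 h against PS0, 1 to 9 for shoot 3 h against PS0, 0 to 1 for root minus shoot at 1 h against S0, 0 to 1 for root minus shoot at 2 h against PS0, 2 to 13 for root minus shoot at 1 h against PH0, 0 to 6 for root minus shoot at 2 h against PH0 and 0 to 5 for root minus shoot at 3 h against PH0. Replicate numbers share only a number here: the mean correlation of same-numbered libraries was 0.041 in roots, with 15 of 45 pairs over 0.1, and 0.00082 in shoots, with 7 of 45, and 6 of 18 root and 8 of 18 shoot libraries correlated best with their own number. The cause of these moves was not tested. TMM moved the median of all genes by -0.47 to 0.48 on the log2 scale, by over 0.1 in 27 of 40 comparisons.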

Other observations

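The 155 other cytosolic ribosomal protein genes of the table gave counts beside those of the members. For these and the lists below, the shares of all genes called in the same comparisons are given above. In shoots 141 of them were tested, and against PH0 water 63, 50 and 64 were higher at 1 h, 2 h and 3 h of PEG+SHAM, with 0, 1 and 0 lower and medians of 1.04, 0.75 and 0.84 on the log2 scale. Against S0 water 10, 3 and 4 were higher and 37, 36 and 32 lower. Against PS0 water 0, 0 and 1 were higher in shoots, the 1 being RPL16B (AT4G18730), and 0, 8 and 10 lower, while in roots 0 of 154 were called at any of the 3 times. Of 13 ribosome biogenesis genes tested in shoots, 9, 7 and 6 were higher than in PH0 and 0 lower. At 3 h the nucleolin gene NUC-L1 was higher by 1.45 ± 0.16 (limma adjusted p = 1.73e-06) and the fibrillarin gene FIB1 by 1.67 ± 0.23. Against PS0 shoots 4 biogenesis genes were lower at 3 h and 0 higher, among them FIB2 at -1.48 ± 0.31 (adjusted p = 0.00282), NSN1 at -1.36 ± 0.37 and NOP56 at -1.01 ± 0.29. Against S0 shoots at 3 h NUC-L1 and FIB1 were higher, by 1.08 ± 0.16 and 0.89 ± 0.23, and NOP10 was lower at low signal. Root biogenesis genes went both ways against PH0 at 3 h. FIB1 was higher there, by 0.67 ± 0.21, while NSN1 and SWA1 were lower, at -1.43 ± 0.40 and -1.05 ± 0.34.

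Plastid ribosomal proteins gave other counts than cytosolic ones. Of 33 tested in shoots, 1, 0 and 1 were higher and 15, 18 and 19 lower than in S0 at the 3 times, with emb2184 at -5.35 ± 0.74 at 3 h (adjusted p = 2.38e-05). Against PH0 shoots 0, 0 and 2 were higher and 2, 10 and 9 lower. In roots 8, 6 and 10 of 30 were higher than in PH0 and 0 lower, with RPL15 at 1.78 ± 0.26 at 3 h (adjusted p = 0.000122). Against S0 roots at 3 h they were called in both directions, with EMB3113 at 1.24 ± 0.27 and PRPL28 at -2.70 ± 0.68. Of the 5 TOR and S6 kinase pathway genes tested in shoots, 2 were higher at 3 h than in S0 and 0 lower. These were PK1, an S6 kinase gene, with 76.6 ± 8.59 at 3 h and 16.7 ± 3.90 in S0 (SD, n = 3 each; 2.15 ± 0.31, adjusted p = 4.78e-05), and S6K2 with 1.74 ± 0.35. PK1 was also higher than in PS0 shoots, by 1.93 ± 0.31, and gave 0.60 against PH0 without a call (adjusted p = 0.166). S6K2 was higher than in PH0 shoots, by 1.19 ± 0.35 (adjusted p = 0.0167), and gave 0.86 ± 0.35 against PS0 without a call (adjusted p = 0.120). Roots at 3 h also had PK1 higher than in PS0, by 1.08 ± 0.32, and than in S0, by 0.85 ± 0.32. S6K2 was higher there than in S0, by 0.78 ± 0.24. Neither gene was called against PH0 roots at 3 h.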
